A study of Homo sapiens with 6 samples.

Results

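Integrins are cell surface receptors, each made of an α and a β chain, that hold cells to the matrix and to other cells and pass signals in both directions across the membrane. The α chain largely sets what is bound: α3, α6 and α7 bind laminin, α1, α2, α10 and α11 bind collagen, and α5, αV, α8 and αIIb bind ligands with the RGD motif such as fibronectin and vitronectin. Integrin β1 pairs with the most α chains, while αV also pairs with β3, β5, β6 and β8, α6 also with β4 in hemidesmosomes, and the β2 and β7 receptors belong to leukocytes. Laminins are basement membrane proteins made of an α, a β and a γ chain, and in epithelia trimers with LAMA3 and LAMB3, and those of LAMA5, LAMB1 or LAMB2, and LAMC1, are main ligands of the laminin-binding integrins.

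The genes described are all rows of the deposited table whose symbol names an integrin α chain (18 genes), an integrin β chain (8 genes) or a laminin chain (12 genes), 38 of 63241 genes in all. They were measured by RNA sequencing in T24, an established human bladder cancer line, transfected with a control small interfering RNA (siNC, labelled wild type, 3 libraries) or with one against USP43, a deubiquitinating enzyme (siUSP43, labelled USP43 knockdown, 3 libraries). All libraries carry the same batch label, while the harvest time and whether the 3 siUSP43 libraries received 1 duplex or several are not stated in the labels. Nothing in the labels says whether the numbered libraries were separate cultures, so the tests measure the spread between these libraries, which may be technical.

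Library totals ran from 21430574 to 25577200 gene counts. USP43 was at 2.36, 2.09 and 2.08 FPKM (read counts scaled to exonic length and library depth) in siNC and at 1.02, 0.67 and 0.80 FPKM in siUSP43. Its log2 fold change was -1.40 (SE 0.14; edgeR quasi-likelihood test, Benjamini-Hochberg adjusted p = 5.63e-06), and an exact permutation test over libraries, two-sided, reached p = 0.1, the smallest that 3 against 3 allows. With limma on log2(FPKM + 1) the USP43 difference was -0.80. Of the markers used to check the cell type, 4 of 6 epithelial and 3 of 3 mesenchymal genes had a mean of at least 1 FPKM, with VIM at a mean of 428 FPKM and the E-cadherin gene CDH1 at 0.005 FPKM. Of 9 urothelial markers only PPARG reached 1 FPKM, and KRT5 and KRT20 had no counts. Some of these markers moved between the groups: the keratin genes KRT7 and KRT19 fell, both with a log2 fold change of -0.38, PPARG rose, at 0.50, and EPCAM, below the minimum, went from 0.587 to 1.24 FPKM on average. KRT8, KRT18, VIM, CDH2 and ZEB1 did not pass. The summed level was 524 to 541 FPKM in siNC and 466 to 530 FPKM in siUSP43 for the epithelial list, 453 to 472 and 416 to 457 FPKM for the mesenchymal list, and 2.46 to 2.79 and 2.91 to 3.40 FPKM for the urothelial list. The part of these shifts in the chain gene values was not tested.

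Of the 38 genes, 20 had a mean of at least 1 FPKM over the 6 libraries and were tested with all other genes above that level. Among these 20, 4 rose in siUSP43 (ITGB1, ITGB8, LAMA3 and LAMA4), 11 fell (among them ITGA2, ITGA3, ITGA5, ITGA6, ITGA7, ITGAE, ITGB3, LAMA5, LAMB1 and LAMB3) and 5 did not pass (ITGAV, ITGB4, ITGB5, LAMB2 and LAMC1). The threshold for a call was 0.05 on edgeR's p-values after Benjamini-Hochberg adjustment across the 11417 genes above that level. Of those 11417, 28.0% rose and 28.1% fell. The 20% of chain genes that rose lay below the share of all genes and the 55% that fell lay above it, and neither difference was tested. LAMA3 and LAMA4 averaged under 1 FPKM in siNC and passed the minimum only through their siUSP43 values, which favours the count that rose. The median log2 fold change was -0.27 over the 20 chain genes and -0.01 over all tested genes. The tested chain genes had mean counts of 233 to 24200 per library.

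The calls are counted next by chain class, beside the 28.0% of all tested genes that rose and the 28.1% that fell. No class was tested against the other genes, and each holds 7 tested genes or fewer. Of 7 tested integrin α genes 6 fell and 0 rose at the adjusted threshold in edgeR, against 5 and 0 in DESeq2, which left out ITGAE, and the remaining gene, ITGAV, had an unadjusted p of 0.0834. Their median was -0.41 on the log2 scale. Of 5 tested integrin β genes 2 rose (40%) and 1 fell (20%), against 28.0% and 28.1% of all tested genes. Of 3 laminin α genes 2 rose and 1 fell, but the 2 that rose averaged under 1 FPKM in siNC and entered the test only through their siUSP43 values, so this count was favoured by the filter. Of 3 laminin β genes 2 fell.

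**Figure D1:**
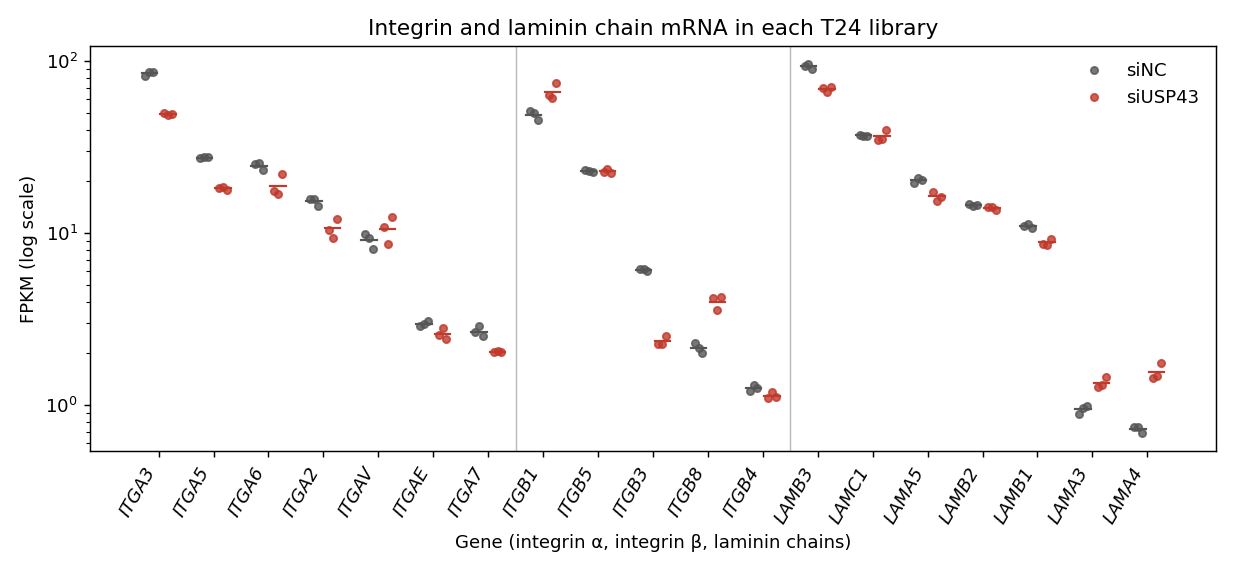
FPKM of tested chain genes in each library on a log scale, with siNC in grey and siUSP43 in red; points are libraries and bars are group means. ITGA3 and LAMB3 lead their classes, and ITGB1 stands above its siNC values in all 3 siUSP43 libraries while ITGA2, ITGA3, ITGA5, ITGA6 and ITGA7 stand below theirs.

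**Figure D2:**
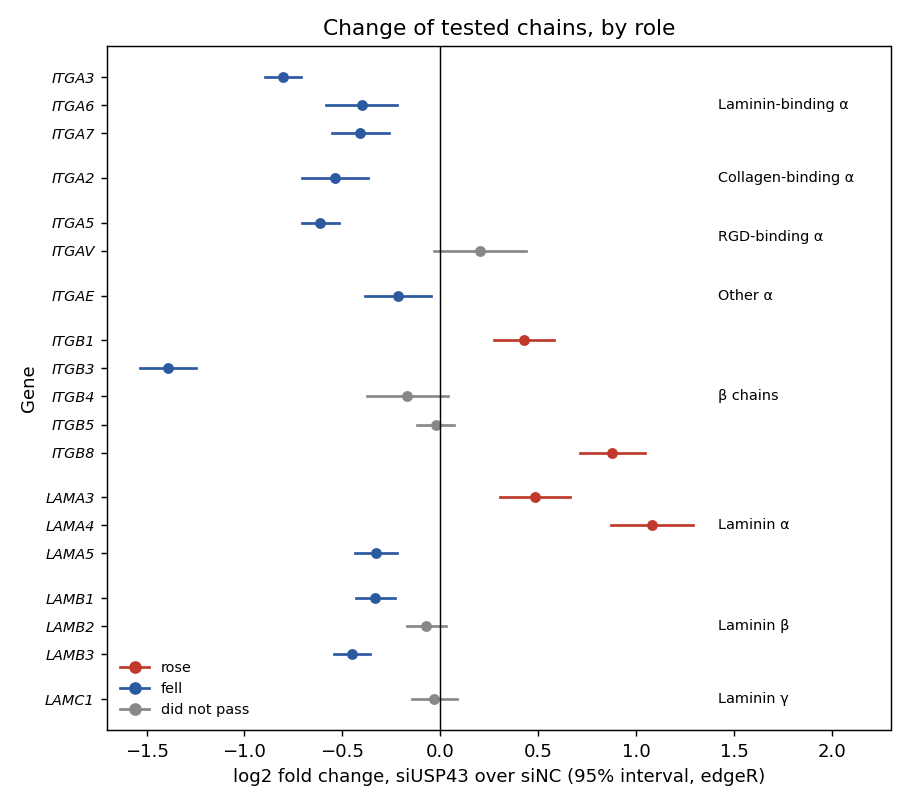
log2 fold change of siUSP43 over siNC for tested chain genes, grouped by role, with its 95% interval from the edgeR fit. ITGB3 has the lowest value, at -1.39, and LAMA4 the highest, at 1.08.

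ITGA3, the α chain of the main epithelial laminin receptor α3β1, was the highest α gene and had the lowest log2 fold change of the 7 tested α genes. It was at 82.3, 86.0 and 87.0 FPKM in siNC and at 49.9, 48.9 and 49.2 FPKM in siUSP43. Every siUSP43 library lay far below every siNC library, and the log2 fold change was -0.80 (SE 0.04; edgeR, Benjamini-Hochberg adjusted p = 3.67e-08), a 1.75-fold lower level. ITGA3 lies on GRCh38 chromosome 17, 50055968 to 50090481, plus strand.

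ITGA6, whose chain pairs with β1 and β4, was at 25.3, 25.5 and 23.4 FPKM in siNC and at 17.7, 16.99 and 22.1 FPKM in siUSP43. The groups did not overlap, but the third siUSP43 library stood close to siNC. The log2 fold change was -0.40 (SE 0.08; edgeR, Benjamini-Hochberg adjusted p = 0.00153), and without that library it was -0.53. ITGA6 shares 25620 bases with PDK1-AS1 on the other strand, which had a mean of 104 counts and a log2 fold change of -1.08. ITGA7, the laminin receptor chain best known from muscle, was low, at 2.65, 2.87 and 2.52 FPKM in siNC and 2.04, 2.06 and 2.04 FPKM in siUSP43. Its log2 fold change was -0.41 (SE 0.07; edgeR, Benjamini-Hochberg adjusted p = 2.86e-04), or -0.27 with limma on log2(FPKM + 1). ITGA7 shares 367 bases with BLOC1S1 and 44 with TMT1B on the other strand, which had log2 fold changes of -0.31 and -0.72. Whether counting used strand is not stated, so reads of ITGA6 and ITGA7 may be mixed with those of these genes. The muscle markers DES, MYH11 and MYOG had means of 0.025, 0.0667 and 0.0117 FPKM, and their sum was 0.12 to 0.17 FPKM in siNC and 0.05 to 0.08 FPKM in siUSP43. The part of this sum in the ITGA7 values was not tested. These markers are near the floor of the measurement, with 0 to 5 counts per library for DES, 26 to 55 for MYH11 and 0 to 3 for MYOG. ITGA7 had 473 to 760 counts in the same libraries, all from the T24 line. In bulk RNA, fewer cells of a type and less RNA per cell cannot be told apart.

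ITGA2, the α chain of the collagen receptor α2β1, was at 15.8, 15.7 and 14.5 FPKM in siNC and at 10.5, 9.42 and 12.1 FPKM in siUSP43. The groups did not overlap, with a log2 fold change of -0.54 (SE 0.08; edgeR, Benjamini-Hochberg adjusted p = 1.08e-04). ITGA1, which encodes the other widely expressed collagen-binding chain, is its neighbour on chromosome 5, with 30.1 kb between the genes. Its mean of 0.793 FPKM kept it out of the test, although its exonic size of 18545 bases gave it 276 to 552 counts per library. ITGA1 was at 1.04, 0.98 and 0.92 FPKM in siNC and at 0.60, 0.59 and 0.63 FPKM in siUSP43, without overlap. When genes with a mean of at least 0.1 FPKM were tested, ITGA1 had a log2 fold change of -0.70 (SE 0.08; edgeR, Benjamini-Hochberg adjusted p = 2.51e-06). In that fit 25 chain genes were tested, 5 rose and 12 fell, against 19.6% and 20.1% of 19209 genes.

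ITGA5, the α chain of the fibronectin receptor α5β1, was at 27.4, 27.6 and 27.7 FPKM in siNC and at 18.3, 18.6 and 17.8 FPKM in siUSP43. Its libraries were tight within each group and far apart between groups, with a log2 fold change of -0.61 (SE 0.04; edgeR, Benjamini-Hochberg adjusted p = 3.70e-07). ITGAV, whose chain serves 5 β chains, was the tested α gene that did not pass. It was at 9.90, 9.43 and 8.11 FPKM in siNC and at 10.9, 8.65 and 12.4 FPKM in siUSP43, so the groups overlapped. The log2 fold change was 0.20 (SE 0.11) with a 95% interval of -0.03 to 0.44 (edgeR, Benjamini-Hochberg adjusted p = 0.127). Without the second siUSP43 library ITGAV passed, at 0.33 (edgeR, Benjamini-Hochberg adjusted p = 0.00285). It was 0.08 without the third siUSP43 library and 0.13 without the third siNC library, with adjusted p-values of 0.421 and 0.362 (edgeR, Benjamini-Hochberg).

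ITGAE, the α chain that pairs with β7 on intraepithelial lymphocytes, was at 2.90, 2.96 and 3.10 FPKM in siNC and at 2.55, 2.83 and 2.43 FPKM in siUSP43. Its log2 fold change of -0.22 (SE 0.08; edgeR, Benjamini-Hochberg adjusted p = 0.0312) did not pass in 10 of 15 alternatives, whose adjusted p-values ran from 0.00819 to 0.111. Its partner ITGB7 averaged 0.03 FPKM. ITGAE overlaps HASPIN on the other strand, a kinase gene with a mean of 429 counts and a log2 fold change of 0.23. The labels do not say whether counting used strand, so reads of the pair may be mixed.

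The order of α levels per kilobase in siNC was ITGA3, ITGA5, ITGA6, ITGA2, ITGAV, ITGAE and ITGA7, and no neighbouring ranges overlapped. In siUSP43 the ranges of ITGA5 and ITGA6 overlapped, as did those of ITGA2 and ITGAV. FPKM values were scaled to the full annotated exonic size, which was 19336 bases for ITGAV and 6679 for ITGA6, so a comparison of levels between genes depends on how much of that annotation the cells use.

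ITGB1, the partner of the tested α chains other than ITGAE, went the other way from those that fell. It was at 51.2, 50.1 and 45.6 FPKM in siNC and at 63.9, 61.0 and 74.8 FPKM in siUSP43. All siUSP43 values lay above all siNC values, with the third library highest, and the log2 fold change was 0.43 (SE 0.07; edgeR, Benjamini-Hochberg adjusted p = 2.74e-04). ITGB8, which with αV binds latent TGF-β, rose from 2.29, 2.15 and 2.02 FPKM to 4.19, 3.57 and 4.25 FPKM. That was a 1.84-fold increase and a log2 fold change of 0.88 (SE 0.08; edgeR, Benjamini-Hochberg adjusted p = 1.80e-06).

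ITGB3, the β chain of the vitronectin receptor αVβ3, showed the largest change of the 20 genes in size. It was at 6.18, 6.23 and 6.01 FPKM in siNC and at 2.27, 2.28 and 2.54 FPKM in siUSP43, which is 2.63-fold lower. The log2 fold change was -1.39 (SE 0.07; edgeR, Benjamini-Hochberg adjusted p = 1.98e-08). ITGB5, the other vitronectin receptor β chain, was at 23.4, 23.0 and 22.6 FPKM in siNC and at 22.8, 23.6 and 22.4 FPKM in siUSP43. Its log2 fold change was -0.02 with a 95% interval of -0.12 to 0.07. ITGB4, the hemidesmosome β chain, had a log2 fold change of -0.17 with an interval of -0.38 to 0.04, from 1.26 ± 0.0551 to 1.14 ± 0.0473 FPKM (SD, n = 3 each). The FPKM values of ITGB4 did not overlap between groups, although it did not pass. It shares 6225 bases with GALK1 on the other strand, which had a log2 fold change of -0.88.

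Set against each other within each library, the α chains lost ground to β1. The summed FPKM of all 12 β1-pairing α genes was 3.21, 3.36 and 3.60 times that of ITGB1 in siNC and 1.72, 1.73 and 1.56 times in siUSP43, so the ratio was 2.03-fold lower. ITGA3 stood at 1.61, 1.72 and 1.91 times ITGB1 in siNC and at 0.781, 0.801 and 0.658 times in siUSP43, from above its partner to below it on the FPKM scale, in which the exonic size of ITGB1 is 14561 bases. The ratios of ITGA2, ITGA5, ITGA6 and ITGA7 to ITGB1 were 1.95-, 2.04-, 1.78- and 1.77-fold lower in siUSP43, and that of ITGAV 1.17-fold lower. The opposite calls of the α genes and ITGB1 are contained in these ratios, which are descriptions without a test of their own.

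The β partners of ITGAV changed their order as well. The ratio of ITGAV to ITGB3 was 1.6, 1.51 and 1.35 in siNC and 4.79, 3.79 and 4.88 in siUSP43. ITGB3 lay above ITGB8 in every siNC library, and below it in every siUSP43 library. The ratio of ITGAV to ITGB5 overlapped between groups, at 0.397 ± 0.0341 and 0.466 ± 0.0937 (SD, n = 3 each), and so did that of ITGA6 to ITGB4.

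**Figure D3:**
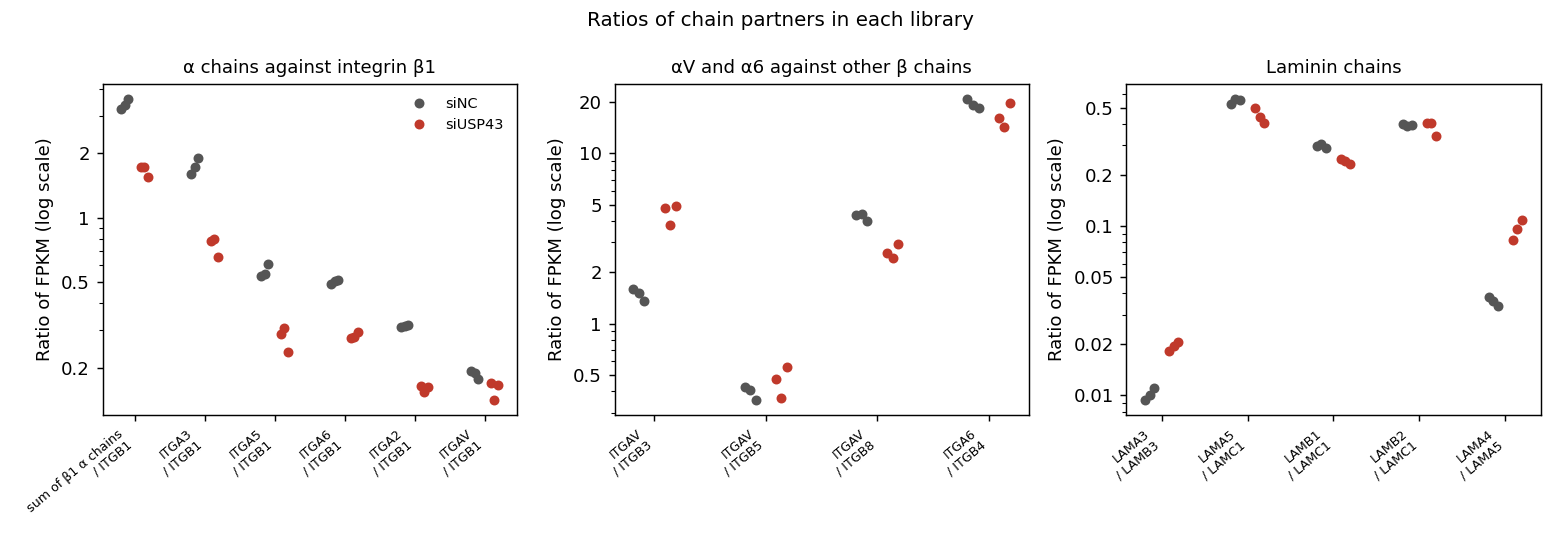
Ratios of FPKM between chain partners in each library on log scales, with siNC in grey and siUSP43 in red. The α chains fall against ITGB1, from a summed ratio of 3.39 to 1.67 on average, while LAMB2 against LAMC1 keeps overlapping values.

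LAMB3 and LAMA3 encode the β and α chains of the trimer that anchors epithelial cells through α6β4 and α3β1. LAMB3 was the highest laminin gene, at 94.2, 95.8 and 90.2 FPKM in siNC and 69.9, 66.6 and 70.8 FPKM in siUSP43. The groups did not overlap, with a log2 fold change of -0.45 (SE 0.04; edgeR, Benjamini-Hochberg adjusted p = 4.02e-06).

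LAMA3 rose while LAMB3 fell. It was at 0.89, 0.97 and 0.99 FPKM in siNC and at 1.28, 1.31 and 1.46 FPKM in siUSP43, a log2 fold change of 0.49 (SE 0.08; edgeR, Benjamini-Hochberg adjusted p = 3.38e-04) on 368 to 640 counts. With limma on log2(FPKM + 1) the value was 0.27. LAMA3 averaged under 1 FPKM in siNC and entered the test only through its siUSP43 values, which favours a call in this direction. With a minimum of 0.1 FPKM, which both groups exceeded, the log2 fold change was also 0.49. A gene's fold change depends little on the minimum, so this value does not bear on the filter. The ratio of LAMA3 to LAMB3 was 0.0102 ± 0.000763 in siNC and 0.0195 ± 0.00117 in siUSP43 (SD, n = 3 each). These FPKM values use an exonic size of 14488 bases that covers long and short LAMA3 transcripts together, so the low level relative to LAMB3, whose size is 4647 bases, may be understated for cells that make the short form.

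The start regions of LAMA3, LAMB3 and ITGA5 are shown because, of the 15 tested chain genes with a window in the RefSeq promoter table (GRCh38.p14; windows around annotated starts), these 3 hold the AP-1 motif, TGACTCA or TGAGTCA on either strand, set in capitals. For LAMB3 it is in 1 of 3 listed windows, and the LAMA3 window lies inside the gene, near the starts of shorter transcripts. They are LAMA3, chr18:23872770-23873069 (plus strand), LAMB3, chr1:209651325-209651624 (minus strand), and ITGA5, chr12:54419217-54419516 (minus strand).
LAMA3: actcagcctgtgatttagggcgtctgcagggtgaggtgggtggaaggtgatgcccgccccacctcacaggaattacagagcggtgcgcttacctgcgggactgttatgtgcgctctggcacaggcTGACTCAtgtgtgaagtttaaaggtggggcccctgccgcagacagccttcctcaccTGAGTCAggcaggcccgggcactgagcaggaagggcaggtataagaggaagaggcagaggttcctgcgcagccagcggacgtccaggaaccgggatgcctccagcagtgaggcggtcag
LAMB3: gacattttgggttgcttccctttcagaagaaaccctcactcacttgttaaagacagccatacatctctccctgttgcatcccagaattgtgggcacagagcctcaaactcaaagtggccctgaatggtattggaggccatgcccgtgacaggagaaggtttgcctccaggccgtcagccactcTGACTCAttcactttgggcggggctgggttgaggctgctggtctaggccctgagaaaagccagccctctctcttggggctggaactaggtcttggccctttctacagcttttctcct
ITGA5: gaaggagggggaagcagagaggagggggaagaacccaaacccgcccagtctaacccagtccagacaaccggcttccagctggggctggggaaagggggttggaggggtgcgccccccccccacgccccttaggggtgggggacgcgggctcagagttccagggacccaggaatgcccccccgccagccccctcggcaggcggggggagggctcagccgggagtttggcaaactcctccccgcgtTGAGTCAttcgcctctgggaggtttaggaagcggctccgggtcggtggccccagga

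The motif is in 3 of the 22 windows of these genes (13.6%) and in 4.95% of all 35116 windows of the table. LAMA3, with 2 copies, rose, whereas LAMB3 and ITGA5, with 1 each, fell. The E2F motif letters TTCCCGC and TTGGCGC, searched on both strands because the series concerns E2F1, were in 0 of the 22 windows and in 9.23% of all windows. Tested chain genes without a window, among them ITGA3, ITGA7, ITGB3 and ITGB4, were searched for neither motif. A match describes letters in a window and no binding.

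LAMA5, LAMB1, LAMB2 and LAMC1 encode the chains of the other main epithelial laminins. LAMA5 fell from 19.7, 20.8 and 20.5 FPKM to 17.4, 15.5 and 16.3 FPKM, a log2 fold change of -0.33 (SE 0.05; edgeR, Benjamini-Hochberg adjusted p = 1.57e-04). It shares 908 bases with ADRM1 on the other strand, which had a mean of 3620 counts and a log2 fold change of 0.01. LAMB1 fell from 10.98, 11.25 and 10.7 FPKM to 8.68, 8.54 and 9.28 FPKM, also -0.33 (SE 0.05; edgeR, Benjamini-Hochberg adjusted p = 8.25e-05). LAMB1 shares 7932 bases with DLD on the other strand, which had a log2 fold change of 0.27.

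LAMB2, the alternative β chain, was at 14.6 ± 0.247 and 14.1 ± 0.348 FPKM (SD, n = 3 each), with a log2 fold change of -0.07 and a 95% interval of -0.17 to 0.03. Its groups did not overlap in FPKM, although it did not pass. LAMC1, the γ chain they share, was at 37.3, 36.9 and 36.9 FPKM in siNC and at 34.9, 35.3 and 39.9 FPKM in siUSP43. Its log2 fold change of -0.03 had an interval of -0.15 to 0.09, and the siUSP43 values lay on both sides of siNC. Leaving out the third siUSP43 library gave -0.09 (edgeR, Benjamini-Hochberg adjusted p = 0.0452), and leaving out the first gave 0.0090. The ratio of LAMB1 to LAMB2 was 0.752 ± 0.0250 in siNC and 0.629 ± 0.0441 in siUSP43 (SD, n = 3 each), without overlap.

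LAMA4, the α chain of vascular and mesenchymal basement membranes, rose from 0.75, 0.75 and 0.69 FPKM to 1.44, 1.48 and 1.76 FPKM. Its log2 fold change of 1.08 (SE 0.10; edgeR, Benjamini-Hochberg adjusted p = 2.31e-06) was the largest increase of the 20 genes on this scale, on 242 to 636 counts. With limma on log2(FPKM + 1) it was 0.56. LAMA4 averaged under 1 FPKM in siNC and entered the test only through its siUSP43 values, which favours a call in this direction. With a minimum of 0.1 FPKM, which both groups exceeded, the log2 fold change was 1.09. As for LAMA3, this value depends little on the minimum and does not bear on the filter. LAMA4 stood at 0.0359 ± 0.00226 times LAMA5 in siNC and 0.0955 ± 0.0126 times in siUSP43 (SD, n = 3 each), so LAMA5 remained far higher. The endothelial markers PECAM1, CDH5 and VWF had means of 0.0333, 0.0533 and 0.0233 FPKM. Their sum was 0.11 to 0.17 FPKM in siNC and 0.06 to 0.10 FPKM in siUSP43. All are near the floor of the measurement. Counts per library were 2 to 12 for PECAM1, 3 to 15 for CDH5 and 2 to 13 for VWF. Each marker overlapped between groups, and their part in the LAMA4 values was not tested.

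Sites with the letters GGATCCA or GATCCAA in 3' UTRs are shown next because 3 of the α genes that fell hold them. The letters came from an earlier look at the same fold changes and are no separate evidence. GENCODE 29 transcripts (GRCh38) were searched on the transcript strand, 1 transcript per gene, and overlapping matches were counted as 1 site, set in capitals. Of the 20 tested chain genes these 3 held a site (15.0%), against 9.6% of the 9933 tested genes whose 3' UTR was searched. Of the genes below the expression minimum, ITGA1 held 3 sites and ITGB6 held 2. The sites lie at chr17:50089655-50089681 for ITGA3 (plus strand), chr12:54395863-54395889 for ITGA5 (minus strand), chr2:172505344-172505371 for ITGA6 (plus strand) and, for the first of ITGA1, chr5:52954330-52954356 (plus strand).
ITGA3: ctttcacactGGATCCAtcttgagcca
ITGA5: ccttgccagaGATCCAAaagaagcccc
ITGA6: tgcctatggtGGATCCAAactgatccag
ITGA1: taaagctaacGGATCCAttgaaattca

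Among the 9933 searched genes, such sites were in 15.3% of those that fell, 6.76% of those that rose and 7.57% of those that did not pass. Of the 11 chain genes that fell, 27.3% held a site. Because the letters were taken from these same fold changes, the differences between these shares are no test of the sites. The shares were also not adjusted for UTR length. ITGA2, ITGB3 and LAMB3, with 3' UTRs of 4180, 1612 and 401 bases, fell without one, and the long UTRs of ITGB8 (5757 bases), ITGAV (3609 bases) and LAMC1 (2802 bases) held none. Whether the sites have a part in the changes was not tested.

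The remaining 18 chain genes averaged 0 to 0.793 FPKM, and 13 of them averaged under 0.1 FPKM. Most belong to leukocyte, platelet or muscle receptors, or to laminins of other tissues. ITGA4 had 0 counts in all libraries, and a count of 0 allows up to 3 counts per library for counting error alone. ITGAL had 3, 3 and 5 counts in siNC and 0 in each siUSP43 library, ITGAX had 18, 19 and 14 against 2, 3 and 6, and ITGB6, the epithelial TGF-β-activating partner of αV, had 9, 8 and 10 against 0, 4 and 2. Both groups of these genes are near the floor of the measurement.

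ITGB2, the leukocyte β chain, was at 0.39, 0.39 and 0.44 FPKM in siNC and at 0.63, 0.81 and 0.59 FPKM in siUSP43, on 81 to 150 counts. In the fit of genes with a mean of at least 0.1 FPKM it rose, with a log2 fold change of 0.73 (SE 0.15; edgeR, Benjamini-Hochberg adjusted p = 8.88e-04). None of the 6 leukocyte markers reached 1 FPKM. Their summed level was 0.95 to 1.11 FPKM in siNC and 0.41 to 0.56 FPKM in siUSP43, nearly all of it CD14, and CD3E had no counts. That sum moved opposite to ITGB2 and the same way as ITGAL and ITGAX, and its part in these values was not tested. ITGA2B, ITGA10 and LAMA1 did not pass in this fit, with log2 fold changes of 0.10, 0.51 and 0.23 and SEs of 0.27, 0.36 and 0.14.

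Integrins work through cytoplasmic partners and matrix ligands, which were followed as 6 lists of 74 genes, 57 of them tested. Of these 57, 20 rose (35.1%) and 18 fell (31.6%), against 28.0% and 28.1% of all tested genes, and their median log2 value was -0.01, as over all genes. The counts of each list describe its members, and no list was tested against the other genes. Among the listed talin, kindlin and other regulators of integrin activation, 3 of 9 tested genes rose (33.3%) and 1 fell (11.1%). Of all tested genes 28.0% and 28.1% did. RAP1A, a small GTPase, had a log2 fold change of 0.30, the kindlin gene FERMT2 one of 0.15, the talin gene TLN1 one of 0.13 and RAP1B one of -0.12. The kindlin gene FERMT1 and the filamin gene FLNA did not pass.

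In the adhesion plaque 4 of 17 tested genes rose (23.5%) and 6 fell (35.3%), near the 28.0% and 28.1% of all genes. The α-actinin gene ACTN1, which links the plaque to actin, rose by 0.50, from 28.3 ± 0.410 to 40.4 ± 0.664 FPKM (SD, n = 3 each). The kinase genes PTK2, which encodes focal adhesion kinase, and SRC had log2 fold changes of -0.43 and -0.40, and the paxillin relative LPXN one of -0.61. Of the 8 hemidesmosome and tetraspanin partners 2 rose (25%) and 3 fell (37.5%), beside the same 28.0% and 28.1%. CD82, a tetraspanin that associates with integrins, was at 12.9 ± 0.732 FPKM in siNC and 4.80 ± 0.169 FPKM in siUSP43 (SD, n = 3 each) and fell, at -1.45 (SE 0.07; edgeR, Benjamini-Hochberg adjusted p = 1.91e-08). CD9 had -0.36, TSPAN4 -0.19 and PLEC, the plectin gene, 0.15.

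Of 10 tested basement membrane partners 5 rose and 4 fell, against 28.0% and 28.1% of all tested genes. NTN4, a netrin that binds laminin γ chains, was at 2.14 ± 0.210 FPKM in siNC and 5.15 ± 0.519 FPKM in siUSP43 (SD, n = 3 each) and rose, at 1.25 (SE 0.10; edgeR, Benjamini-Hochberg adjusted p = 8.44e-07). The collagen IV gene COL4A1 had 0.79, SPARC 0.66 and COL4A5 -0.47. Of 8 tested non-laminin ligands 3 rose (37.5%) and 4 fell (50%), beside 28.0% and 28.1% over all genes. FN1, which encodes fibronectin, the α5β1 ligand, fell from 213.5 ± 9.63 to 77.7 ± 8.79 FPKM (SD, n = 3 each), with a log2 fold change of -1.48, alongside its receptor gene ITGA5 at -0.61. CCN2 and CCN1, matricellular ligands of αV integrins, had log2 fold changes of 1.45 and 1.14, and THBS1, the thrombospondin gene, had 0.79. Of 5 laminin receptors outside the integrin family 3 rose and 0 fell in edgeR at the adjusted threshold, with 28.0% and 28.1% of all genes called in those directions, while BCAM had an unadjusted p of 0.0447 with a log2 fold change of -0.25. DAG1, the dystroglycan gene, had 0.50, and the syndecan genes SDC1 and SDC4 had 0.28 and 0.27.

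**Figure D4:**
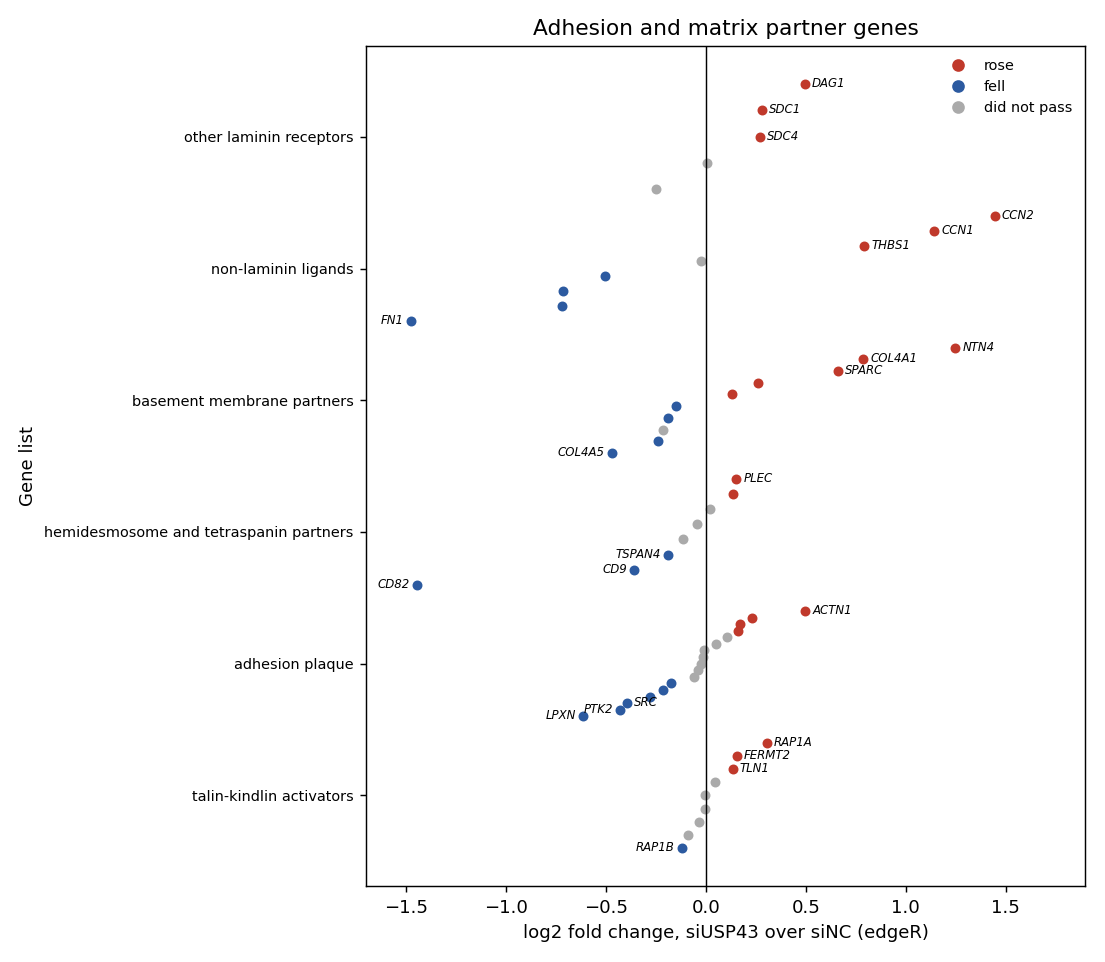
log2 fold change of siUSP43 over siNC for the 57 tested partner genes in 6 lists, 1 point per gene, with red for genes that rose, blue for genes that fell and grey for those that did not pass. Every list but the laminin receptors outside the integrin family holds calls in both directions, and FN1 and CCN2 lie at the ends, at -1.48 and 1.45.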

How the data were processed

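The authors deposited raw read counts and FPKM for each gene and library in a single table, per the file headers, with symbol, position and exonic size. The submitters' processing notes name cutadapt 2.6, HISAT2 2.2.1 and GRCh38. Which counter, annotation release, strand setting and rule for multi-mapping reads applied is not given in the sources used here, and 7 of the 20 tested chain genes overlap another tested gene. RNA input was 2 μg per library, per the labels' protocols.

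Counts were tested with edgeR 4.0.16 in R 4.3.3 (quasi-likelihood fit, TMM factors, group as the only term) on genes with a mean of at least 1 FPKM, with Benjamini-Hochberg adjustment over all 11417. SEs come from the fold change and its F statistic. The test was checked on simulated counts in which few genes changed. Many more were called in these data, so that check does not cover the scaling or error rate here. Values in FPKM describe levels and partner ratios. Intervals are 95%. DESeq2 1.42.0 and limma 3.58.1 on log2(FPKM + 1) or log2(FPKM + 0.1) were alternatives, beside other scalings, other expression minimums, the replicate number as a block and each library left out. Chain genes, partner lists and markers were chosen with earlier results of these data known. All chain genes are in the counts, and per-library or mean values are given for those tested, except for an item that is not reported here. From each partner list up to 4 called genes with the largest change are named, and FERMT1, FLNA and BCAM were named after their values were seen. Libraries of a group differed by more than counting noise (chi-square per degree of freedom 2.28 to 14.9). No molecular identifiers are named in the labels, so the floor of 3 counts covers counting error only.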

Additional observations from a re-analysis of the deposited data

How the results depend on the processing

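In every alternative that tested them, 19 of the 20 chain genes and USP43 kept their direction. LAMC1 reversed to 0.0090 without the first siUSP43 library and passed at -0.0941 without the third, and the cause was not tested. With a minimum of 5 FPKM, which leaves 13 chain genes in the test, 1 chain gene rose and 8 fell. Of all 6246 genes in that fit, 1889 rose and 1892 fell. The counts of chain genes called lay between 1 and 6 for increases and 8 and 15 for decreases over the alternatives, which tested 13 to 37 chain genes. With each library left out they lay between 4 and 5 and between 10 and 11. Without a filter 37 chain genes were tested, 6 rose and 15 fell, against 3837 and 4070 of 33934 genes. Over all genes, leaving out a library gave 2718 to 3273 increases and 2710 to 3275 decreases. With the replicate block 4 chain genes rose and 10 fell, and 2775 and 2841 of all genes. No effect shared by same-numbered libraries was seen. Their deviations from the group means correlated at -0.00863, -0.111 and -0.236, and 0 libraries correlated best with their own number. With 3 libraries per group this cannot tell whether they were paired, which the labels do not state. ITGAE lost its call in 10 of 15 alternatives, and ITGAV gained one in 2 of 16, without a filter and without the second siUSP43 library. Chain genes under 1 FPKM are limited by depth, most of them with fewer than 50 counts per library.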
